A study of Mus musculus with 6 samples.

Results

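Wnt signalling was examined in freshly sorted lung endothelial cells (EC) through 9 genes: the ligand Wnt5a, the secreted inhibitor Sfrp1, the membrane inhibitor Apcdd1, the receptor Fzd4, the co-receptors Lrp5 and Lrp6, β-catenin (Ctnnb1), its DNA-binding partner Lef1 and the feedback gene Axin2. They were chosen by gene symbol, with earlier results of these data known, and were 9 of the 12623 genes of the table. The study profiled EC at the age when lung vessels still grow and at the age when they come to rest, to find genes that change as EC become quiescent. RNA-seq libraries came from 3 infant and 3 young adult samples of untreated C57BL/6N mice, a wild-type inbred strain, described as independent biological replicates. The labels give age only as infant or young adult. Per the study's methods the mice were female, and the sorted living cells carried CD31 and CD34 and lacked PTPRC, LYVE1, LY76 and PDPN. How many animals went into each library was not given in the sources used here. If a library pooled animals, the p-values measure the spread between pools.

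Wnt ligands bind Frizzled receptors together with LRP5 or LRP6, which stops the destruction complex built on Axin and APC from marking β-catenin for degradation. β-catenin then enters the nucleus and joins TCF/LEF proteins on target genes such as Axin2. In endothelium FZD4 also receives Norrin, a ligand outside the Wnt family that drives growth and barrier formation of retinal vessels, while β-catenin has a separate role in the cadherin junctions that hold EC together.

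Wnt5a and Lef1 were lower in every young adult library than in any infant library. By contrast, Fzd4 and Lrp5 were higher in every young adult library by less than the fold threshold. The call of Lef1 held in 2 of 6 fits that left out 1 library. Summed fibroblast markers were lower in young adult libraries too, and the part of other cell types was not tested. Ctnnb1 was among the most abundant of the genes at both ages and was lower in young adult EC by a small margin. Lrp6 and Axin2 overlapped between the ages. Levels are RPKM, reads scaled to transcript length and to the mapped reads of the library, and can be compared between genes because they are per length. Log2 fold changes are young adult minus infant on the log2(RPKM + 1) scale, with p-values from limma after Benjamini-Hochberg adjustment over 12458 genes. A gene was called at an adjusted p under 0.05 and past the study's fold threshold, a log2 fold change of 0.81 in either direction. Of the 9 genes, 2 were called lower against 8.1% of all genes tested. None was called higher by limma (2 at an unadjusted p under 0.05), against 3.33% of all genes. At an adjusted p under 0.05 and any fold, 4 were lower (Wnt5a, Lef1, Apcdd1 and Ctnnb1) and 2 were higher (Fzd4 and Lrp5), where the background was 16.2% and 9.26%. The groups did not overlap in 5 genes that were lower and 2 that were higher, against 27.1% and 16.4% of all genes. Lef1, Sfrp1, Wnt5a and Apcdd1 passed the expression filter only through infant libraries, so their counts say nothing about the set.

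**Figure D1:**
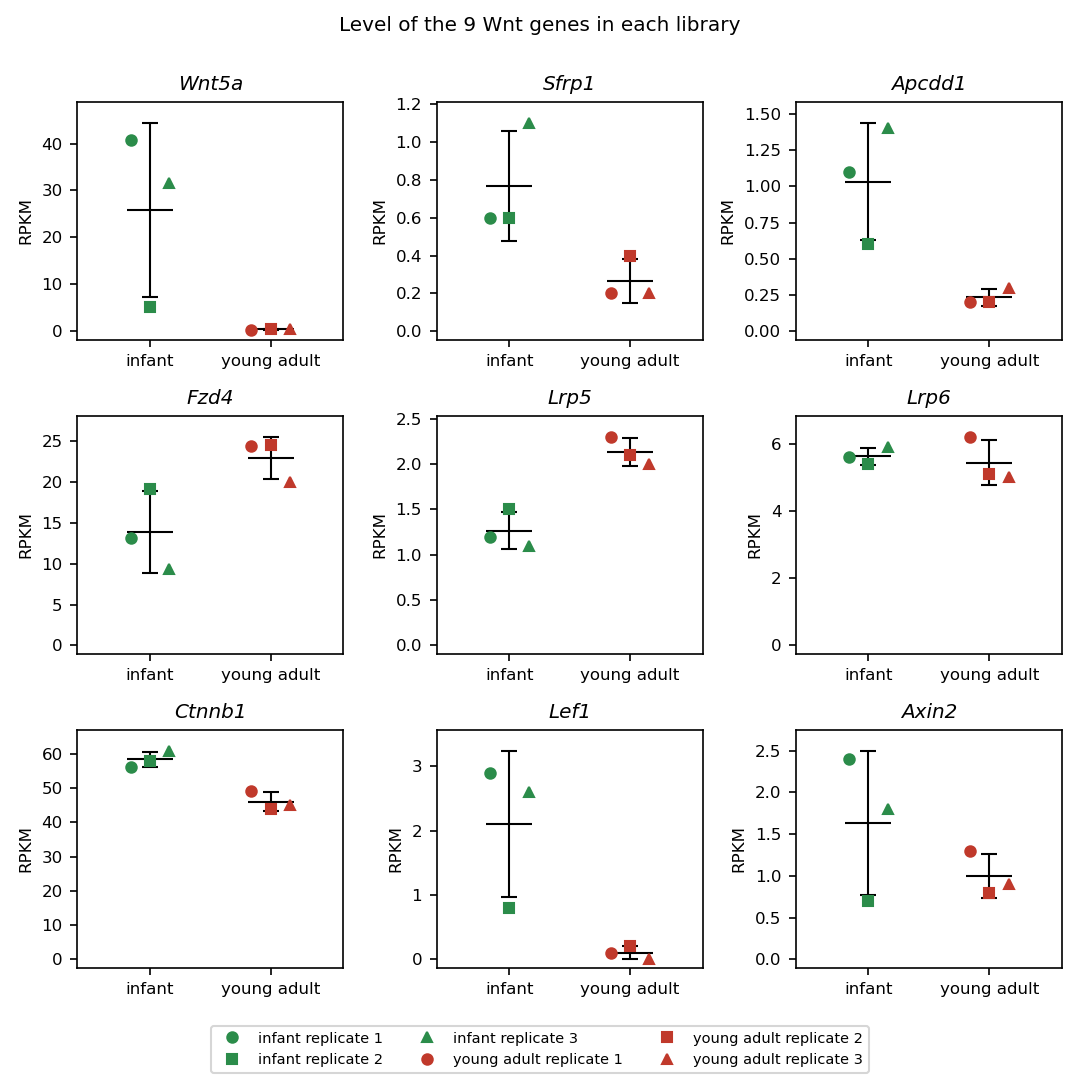
RPKM of the 9 genes in each library (vertical axes, each with its own range and including 0), with infant libraries in green and young adult libraries in red. Horizontal bars and whiskers are the mean ± SD of 3 libraries; the infant square, replicate 2, is at 5.1 RPKM of Wnt5a and 0.8 RPKM of Lef1, below the other infant libraries.

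Libraries had to be read with their cellular make-up in view. The summed RPKM of 10 endothelial markers was 2947 to 4345 in infant and 4764 to 5120 in young adult libraries, and all 10 were present in every library. The 8 fibroblast markers summed to 1111, 246 and 707 in infant replicates 1, 2 and 3 and to 8.3 to 20 in young adult libraries, with 7 of 8 called lower and none at 0. The 8 mural markers summed to 66.7 to 230 and 11.6 to 15.2, with 7 called lower and Cspg4 at 0 in 1 young adult library, and 6 erythroid genes were all called lower. Epithelial (3 of 7 called lower) and leukocyte markers (4 of 7) overlapped in their sums, Msln stood alone for mesothelium and was called lower, and of 3 lymphatic markers Lyve1 was called higher. Lyve1 was at 68.6 to 171.4 RPKM in infant and 252.9 to 396.4 RPKM in young adult libraries, although the sort was against LYVE1. Infant replicate 2 held 0.175 of the erythroid, 0.271 of the fibroblast and 0.290 of the mural sum of the other infant libraries on average, and 1.41 times their endothelial and 1.52 times their epithelial sum. The fibroblast genes were not uniform, since Dcn and Lum stood at 2.55 and 3.27 times the other infant libraries. The Y-linked genes Ddx3y, Eif2s3y, Uty and Kdm5d were present in all infant libraries and at 0 in all young adult libraries, against the study's statement of female mice, so age and this difference cannot be told apart. The X-linked Xist was at 7.6 to 8.7 RPKM in infant and 12.5 to 15.6 RPKM in young adult libraries, so every infant library held Xist and Y-linked transcripts. Whether infant libraries pooled animals of both sexes was not tested. In bulk RNA, fewer cells of a type and less RNA per cell cannot be told apart either.

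Promoter sequences are shown for Fzd4 and Lef1, which differed between the ages in opposite directions, and for Axin2, a standard readout of β-catenin activity. The RefSeq promoter table (build GRCm38.p6, with coordinates as in mm10) held windows for 4 of the 9 genes: Lef1, Fzd4, Ctnnb1 and Axin2. Each window is the 250 bases before an annotated start, on the + strand for all 3 genes. The windows are chr3:131110047-131110296 for the most upstream Lef1 start, chr7:89404116-89404365 for Fzd4 and chr11:108920099-108920348 for Axin2. Capitals mark CTTTG, the core of the TCF/LEF motif, searched on both strands.
Lef1: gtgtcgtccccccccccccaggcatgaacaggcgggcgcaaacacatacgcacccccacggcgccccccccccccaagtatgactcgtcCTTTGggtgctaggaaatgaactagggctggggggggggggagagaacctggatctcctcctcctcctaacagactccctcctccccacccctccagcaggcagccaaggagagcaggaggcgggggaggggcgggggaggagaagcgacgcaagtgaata
Fzd4: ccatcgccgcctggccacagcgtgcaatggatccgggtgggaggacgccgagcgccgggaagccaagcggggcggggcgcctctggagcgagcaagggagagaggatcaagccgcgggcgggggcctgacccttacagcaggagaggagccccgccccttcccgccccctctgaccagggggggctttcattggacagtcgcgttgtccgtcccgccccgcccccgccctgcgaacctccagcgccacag
Axin2: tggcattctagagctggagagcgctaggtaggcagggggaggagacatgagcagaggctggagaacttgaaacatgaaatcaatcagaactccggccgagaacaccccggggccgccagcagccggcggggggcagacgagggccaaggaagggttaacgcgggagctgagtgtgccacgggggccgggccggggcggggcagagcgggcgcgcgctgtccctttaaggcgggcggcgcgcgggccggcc
The Lef1 window shown held CTTTG once, 161 bases before the start. Lef1 has 4 annotated starts, and the windows of the other 3 held 2, 1 and 3 copies. The first of these overlaps the window shown, and its copy 187 bases before the start is the copy already marked. The windows of Fzd4 and Ctnnb1 did not hold it, nor did the Axin2 window, which lies inside the gene. The bases before the first base of Axin2 (108917828) were not searched for it. This core was in 48.6% of all 32851 windows of the table. The longer forms CTTTGAT and CTTTGAA, which contain the core, were in 7.48% of all windows and in none of the windows of the 4 genes. In the GENCODE annotation an antisense transcript covers the Lef1 window, and the Fzd4 window overlaps the first exon of Tmem135 on the opposite strand. That antisense transcript also shares 1208 of 8788 exon bases with Lef1. Exons on the opposite strand likewise share 358 bases with Wnt5a, 209 with Axin2 and 759 with Ctnnb1 (the neighbouring gene Ulk4). The sources used here do not state that strand was used in counting, and without it reads from these shared bases cannot be told apart.

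Wnt5a, a ligand that acts mostly without β-catenin, lies on chromosome 14 (28504543 to 28527448, mm10). It reached 40.8, 5.1 and 31.6 RPKM in infant replicates 1, 2 and 3 and 0.3, 0.5 and 0.5 RPKM in young adult replicates 1, 2 and 3. Infant replicate 2 was far below the other infant libraries, but all infant libraries were above all young adult libraries. Mean levels were 25.8 ± 18.5 and 0.433 ± 0.115 RPKM (SD, n = 3 each), a ratio of 59.6, and the log2 fold change was -3.82 ± 0.64 (SE; 95% interval -5.30 to -2.35; limma adjusted p = 0.00695). The fall was called in 6 of 6 fits that left out 1 library, and was not past the threshold when limma tested against the fold threshold itself (treat, 0 of 9 genes called, 2 at an unadjusted p under 0.05). Its size depended on the pseudocount, with -2.24 at 5 and -5.17 at 0.1. The study had named Wnt5a from these same libraries, so this is not independent evidence. A further RefSeq transcript row of Wnt5a ran in parallel, at 35.9, 4.4 and 27.3 RPKM in infant EC against 0.2, 0.4 and 0.4 RPKM in young adult EC.

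The level of Wnt5a was set against marker sums. Per 1000 RPKM of summed fibroblast markers, Wnt5a was 36.7, 20.7 and 44.7 in infant and 36.1, 25 and 28.3 in young adult libraries, so the groups overlapped on this scale. Per 1000 RPKM of summed endothelial markers it was 12.7, 1.17 and 10.7 in infant and 0.0630 to 0.1 in young adult libraries, without overlap. Young adult Wnt5a was at 0.3 to 0.5 RPKM, where the rounding step is 0.1. The fibroblast sum was also not made up alike at both ages. Col3a1 was at 99.4 to 482.5 RPKM in infant and 1.3 to 4.3 RPKM in young adult libraries, and Dcn at 7.6 to 19.9 and 2.3 to 4.4 RPKM. Ratios to this sum, here and below, therefore depend on the markers chosen. The 3 genes whose centred profile over the 6 libraries was closest to that of Wnt5a, among 6983 compared, were Thbs2, Tgfb3 and Dkk3, with root mean square differences of 0.0969, 0.145 and 0.175 on the log2 scale. The part of fibroblast RNA in the fall was not tested.

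Of the 20 ligands listed, 4 had a row, Wnt5a included, and all 4 had negative fold changes, against 7295 of all 12458 genes tested. All 4 passed the expression filter only through infant libraries, which favours a negative sign, so this count says nothing about the list. Ndp, which encodes Norrin, fell from 4.2, 1.6 and 4.3 RPKM in infant to 0.2, 0.1 and 0.5 RPKM in young adult libraries. Its log2 fold change was -1.73 ± 0.28 (SE, limma adjusted p = 0.00681), called in all 6 fits without 1 library. Per 1000 RPKM of fibroblast markers Ndp was 3.78, 6.50 and 6.08 in infant and 24.1, 5 and 28.25 in young adult libraries, which overlapped. Per 1000 RPKM of endothelial markers it was 0.368 to 1.46 and 0.0201 to 0.0977, without overlap. The part of fibroblast RNA was not tested. Wnt9a and Wnt11 were listed at 0 in all young adult libraries and reached at most 1.2 and 4.7 RPKM in infant libraries. Of the genes for ligand secretion, Wls, the carrier that brings Wnt proteins to the cell surface, was at 68.0 to 70.7 RPKM in infant EC against 50.6 to 58.1 RPKM in young adult EC (a log2 difference of -0.33, adjusted p = 0.0424, under the fold threshold).

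Sfrp1, a soluble protein that binds Wnt ligands, lies on chromosome 8 (23411383 to 23449632). It was at 0.6, 0.6 and 1.1 RPKM in infant EC against 0.2, 0.4 and 0.2 RPKM in young adult EC. The groups did not overlap, yet every value but that of infant replicate 3 was under 1 RPKM, where the rounding step of the table is 0.1. The log2 fold change of -0.47 ± 0.17 did not pass the threshold (limma adjusted p = 0.082), and it was 0.02 after quantile normalization. Its adjusted p ran from 0.036 to 0.943 over the alternatives apart from treat. Without infant replicate 3 the gene did not reach the filter of 1 RPKM.

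Apcdd1, a membrane protein that blocks Wnt signalling and is itself a β-catenin target, lies on chromosome 18 (62922327 to 62953815). Its levels were 1.1, 0.6 and 1.4 RPKM in infant EC against 0.2, 0.2 and 0.3 RPKM in young adult EC, again without overlap and with infant replicate 2 the lowest infant. The means were 1.03 ± 0.404 and 0.233 ± 0.0577 RPKM (SD, n = 3 each), a ratio of 4.43. With the pseudocount of 1 the log2 fold change was -0.70 ± 0.18 (SE; interval -1.13 to -0.28; limma adjusted p = 0.0289), under the fold threshold. It was -0.87 and called without infant replicate 2 (adjusted p = 0.00196), while the adjusted p was 0.0649 to 0.106 in the other 5 fits that left out 1 library. It was -1.71 and called with a pseudocount of 0.1, and -0.24 after quantile normalization (adjusted p = 0.339, the highest over the alternatives apart from treat).

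Of the 15 secreted and membrane inhibitors listed, 4 had a row, all 4 were lower without overlap, and 2 were called lower. The shares over all genes tested were 27.1% and 8.1%. Sfrp1, Apcdd1 and Wif1 passed the expression filter only through infant libraries, so these counts say nothing about the list. Dkk3, a divergent member of the Dickkopf family, fell from 97.5, 17.1 and 85.4 RPKM to 2, 3.9 and 3 RPKM (log2 fold change -3.79 ± 0.59, limma adjusted p = 0.00549). Wif1, a secreted protein that sequesters Wnt ligands, fell from 19.1, 7 and 19.3 RPKM to 0.4, 0.8 and 0.7 RPKM (-3.19 ± 0.34, adjusted p = 0.00157). Both were called in all 6 fits without 1 library. Infant replicate 2 was the lowest infant for both, as it was for 6 of 8 fibroblast markers. Dkk3, per 1000 RPKM of fibroblast markers, was 87.8, 69.5 and 121 in infant and 241, 195 and 170 in young adult libraries, and Wif1 ran from 17.2 to 28.5 and from 39.6 to 48.2, both higher in young adult EC without overlap. The part of fibroblast RNA was not tested.

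Fzd4, the receptor for Norrin and for several Wnt ligands, lies on chromosome 7 (89404366 to 89410110). It stood at 13.2, 19.2 and 9.3 RPKM in infant EC against 24.4, 24.5 and 20 RPKM in young adult EC. Every young adult library was above every infant library and the highest infant value was that of replicate 2. The means were 13.9 ± 4.99 and 23.0 ± 2.57 RPKM (SD, n = 3 each), a ratio of 1.65. On the log2 scale the difference was 0.73 ± 0.23 (SE; interval 0.21 to 1.26; limma adjusted p = 0.0497), past the p threshold and under the fold threshold. The adjusted p was under 0.05 in 1 of 6 fits that left out 1 library, the fit without infant replicate 2, where the gene was called at a log2 fold change of 0.98 (adjusted p = 0.00274). Per 1000 RPKM of endothelial markers Fzd4 was 4.12, 4.42 and 3.16 in infant and 5.12, 4.92 and 3.91 in young adult libraries, and the groups then overlapped. With all genes scaled to the endothelial marker sum, an alternative chosen after seeing the data, the log2 fold change of Fzd4 was 0.24 (adjusted p = 0.271), while the median of all genes moved from -0.07 to -0.51. Over all alternatives apart from treat its adjusted p ran from 0.00274 to 0.271.

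Fzd4 made up a larger share of the Frizzled transcripts in young adult libraries. Of the RPKM of Fzd1, Fzd4 and Fzd6, the 3 Frizzled genes of 10 listed that had a row, Fzd4 took 51.8%, 67.8% and 42.1% in infant and 75.5%, 77.5% and 75.5% in young adult libraries. The difference of 22.3 percentage points had an exact two-sided permutation p of 0.1 (0.1 after adjustment over 3 shares), the smallest that 3 against 3 libraries can give, so no share could pass 0.05. Leaving out 1 library moved it between 16.4 and 29.3 points. Fzd1, the partner receptor that was called lower, had 2.6, 0.8 and 4 RPKM in infant EC against 0.3, 0.3 and 0.4 RPKM in young adult EC. Its log2 fold change was -1.26 ± 0.34 (limma adjusted p = 0.0312), called only without infant replicate 2 among the 6 fits that left out 1 library (adjusted p from 0.0758 to 0.105 in the others). Fzd6, named here only as part of the sum, ran from 8.3 to 9.7 and from 6.1 to 7.6 RPKM. In infant replicate 2 Fzd1 stood at 0.242 of the mean of the other infant libraries, and the fibroblast marker sum at 0.271. The part of other cell types in the Fzd4 share was not tested.

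**Figure D2:**
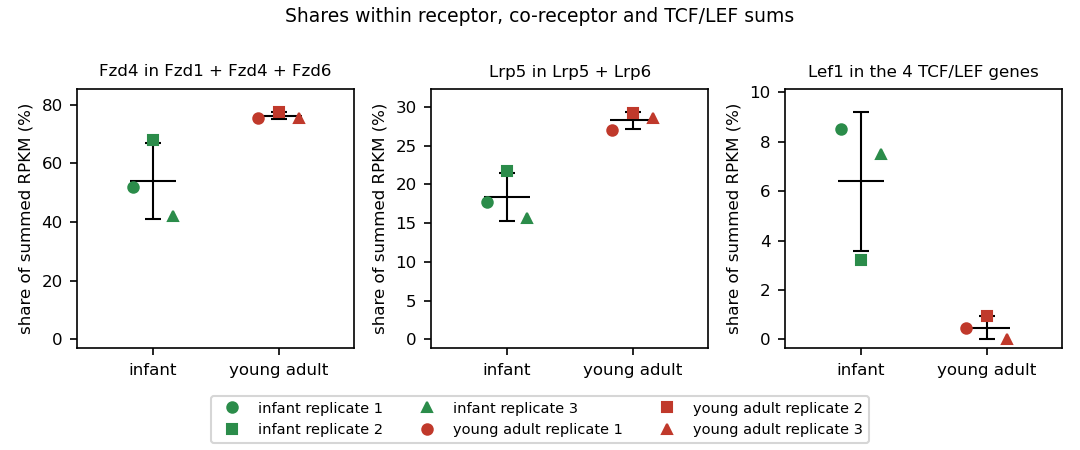
Share in percent of summed RPKM (vertical axes) for Fzd4 among 3 Frizzled genes, Lrp5 among Lrp5 and Lrp6, and Lef1 among 4 TCF/LEF genes, per library, with mean ± SD of 3 libraries. Fzd4 and Lrp5 take larger shares in every young adult library, at least 75.5% and 27.1%, and Lef1 a smaller one, at most 0.926%.

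Lrp5, a co-receptor needed with FZD4 for the Norrin signal, lies on chromosome 19 (3584825 to 3686585). It was low throughout, at 1.2, 1.5 and 1.1 RPKM in infant EC against 2.3, 2.1 and 2.0 RPKM in young adult EC. The groups did not overlap, and the ratio of means was 1.68. The difference on the log2 scale was 0.47 ± 0.12 (SE; interval 0.18 to 0.76; limma adjusted p = 0.0297), under the fold threshold, and the adjusted p stayed under 0.05 in 1 of 6 fits without 1 library, that without infant replicate 2. Per 1000 RPKM of endothelial markers Lrp5 was at 0.375, 0.345 and 0.373 in infant and 0.483, 0.422 and 0.391 in young adult libraries, without overlap. In the fit scaled to the endothelial marker sum its value was 0.15 (adjusted p = 0.479). Over all alternatives apart from treat its adjusted p ran from 0.00916 to 0.479.

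Lrp6, the related co-receptor on chromosome 6 (134446476 to 134566913), was at 5.6, 5.4 and 5.9 RPKM in infant EC against 6.2, 5.1 and 5.0 RPKM in young adult EC. The highest and the lowest values both came from young adult libraries. The log2 fold change was -0.05 ± 0.11 (limma adjusted p = 0.768), and its 95% interval, from -0.30 to 0.20, lay within the fold threshold. Its sign was positive after scaling to the same sum (0.03) and after quantile normalization (0.08).

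Within the co-receptor pair, Lrp6 was the more abundant in all 6 libraries. Lrp5 made up 17.6%, 21.7% and 15.7% of the sum of both in infant and 27.1%, 29.2% and 28.6% in young adult libraries. The difference was 9.90 percentage points (exact permutation p = 0.1, two-sided) and lay between 8.57 and 11.6 points when 1 library was left out. A share within a library does not depend on how that library was scaled.

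Of the 12 co-receptors and their partners listed, 11 had a row. By limma 2 were called lower and none higher (2 were higher at an unadjusted p under 0.05), against 8.1% and 3.33% of all genes tested. Of the 2 called lower, Ptk7 passed the expression filter only through infant libraries. Tspan12, the tetraspanin that joins FZD4 and LRP5 in Norrin reception, was the most abundant, at 185, 275 and 193 RPKM in infant EC against 233, 228 and 255 RPKM in young adult EC, which overlapped (log2 fold change 0.15, adjusted p = 0.543). Ptk7, a co-receptor in planar polarity, fell from 9.1, 2.1 and 5.6 RPKM to 0.6, 0.7 and 0.6 RPKM (-1.86 ± 0.37, adjusted p = 0.013). Reck, a membrane protein that with Gpr124 relays WNT7 signals in brain endothelium, fell from 4.1, 2.8 and 4.1 RPKM to 1.2, 1.1 and 1.4 RPKM (-1.05 ± 0.15, adjusted p = 0.00406). Reck was called in all 6 fits without 1 library, and Ptk7 in all but those without young adult replicate 1 or 2 (adjusted p = 0.0541 and 0.0551).

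In the R-spondin axis, which controls how many Frizzled receptors stay on the surface, 4 of 9 listed genes had a row and Rspo3 was the only gene called. The share called higher over all genes tested was 3.33%, and Rspo3 passed the expression filter only through young adult libraries. This secreted enhancer of Wnt signalling rose from 0.8, 0.8 and 0.7 RPKM in infant to 1.7, 2 and 2.9 RPKM in young adult libraries. Its log2 fold change was 0.84 ± 0.16 (limma adjusted p = 0.0112), called in all fits that left out 1 library but that without young adult replicate 3, where it was 0.69. After scaling to the endothelial marker sum it was 0.55 (limma adjusted p = 0.0416), under the fold threshold and not called. Znrf3, the ubiquitin ligase that removes Frizzled receptors, was at 3.3 to 4.5 RPKM in infant EC against 2.3 to 3.1 RPKM in young adult EC (-0.45, adjusted p = 0.0476, under the fold threshold).

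Axin2, a scaffold of the destruction complex that β-catenin itself induces, lies on chromosome 11 (108917828 to 108950783). It was at 2.4, 0.7 and 1.8 RPKM in infant EC against 1.3, 0.8 and 0.9 RPKM in young adult EC. The groups overlapped through infant replicate 2, the lowest of all 6 libraries. The log2 fold change of -0.35 ± 0.25 did not pass the threshold (limma adjusted p = 0.344), and its interval from -0.94 to 0.24 includes changes past the fold threshold on the lower side. Without infant replicate 2 the value was -0.63, with an adjusted p of 0.0183, and still under the fold threshold. Over all alternatives apart from treat the adjusted p ran from 0.0183 to 0.946.

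The 21 genes of the Dishevelled proteins and the destruction complex included 19 with a row, of which none was called lower by limma (7 were lower at an unadjusted p under 0.05) and 1 was called higher. The shares over all genes tested were 8.1% lower and 3.33% higher. Nkd2, a Dishevelled-binding protein that restrains Wnt signalling, rose from 2, 3.3 and 1.5 RPKM to 6, 8.6 and 6.1 RPKM, a ratio of 3.04. Its log2 fold change was 1.30 ± 0.22 (limma adjusted p = 0.007), called in all 6 fits without 1 library, and the highest infant value was that of replicate 2. Csnk1a1, the kinase that starts the phosphorylation of β-catenin, was the most abundant of the list, at 68.1 to 91.6 RPKM in infant EC against 57.4 to 71.1 RPKM in young adult EC, which overlapped (-0.30, adjusted p = 0.173).

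Ctnnb1, on chromosome 9 (120933400 to 120960507), was the most abundant of the 9 genes at both ages. It had 56.2, 58.0 and 60.8 RPKM in infant EC against 49.1, 43.9 and 44.9 RPKM in young adult EC. The 2 groups did not overlap, and infant replicate 2 lay between the other infant libraries. Means were 58.3 ± 2.32 and 46.0 ± 2.76 RPKM (SD, n = 3 each), a ratio of 0.788 of young adult to infant. The log2 fold change was -0.34 ± 0.10 (SE; interval -0.56 to -0.12; limma adjusted p = 0.0372), so that the whole interval lay within the fold threshold, and the adjusted p stayed under 0.05 in 1 of 6 fits without 1 library, that without infant replicate 2. The second row of the gene gave 53.2, 54.8 and 57.5 against 46.4, 41.5 and 42.5 RPKM. After scaling to the endothelial marker sum the value was -0.85 and the gene was called. Scaling to the same sum over all genes gave -0.25 with an adjusted p of 0.215. Apart from treat, this was the highest over the alternatives, and the lowest was 0.00707.

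Lef1, which binds DNA and recruits β-catenin, lies on chromosome 3 (131110297 to 131224357). It was at 2.9, 0.8 and 2.6 RPKM in infant EC against 0.1, 0.2 and 0 RPKM in young adult EC. All infant libraries were above all young adult libraries, and infant replicate 2 was again the lowest infant. Means were 2.10 ± 1.14 and 0.1 ± 0.1 RPKM (SD, n = 3 each), a ratio of 21 that rests on young adult values of 0 to 2 rounding steps. The log2 fold change was -1.42 ± 0.29 (SE; interval -2.09 to -0.75; limma adjusted p = 0.0135), and Lef1 was called lower. The call held in 2 of 6 fits that left out 1 library: without infant replicate 1 or 3 or young adult replicate 1 or 2 the adjusted p was 0.0529, 0.0514, 0.0536 and 0.0513. With a pseudocount of 5 the fold change was -0.46, under the fold threshold, and with 0.1 it was -3.42. Apart from treat, the adjusted p ran from 6.45e-05 to 0.0536 over the alternatives.

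Lef1 was the scarcest of the TCF/LEF genes. Of the summed RPKM of Lef1, Tcf7, Tcf7l1 and Tcf7l2 it took 8.50%, 3.21% and 7.49% in infant and 0.474%, 0.926% and 0% in young adult libraries. The difference of -5.94 percentage points had an exact two-sided permutation p of 0.1 and ranged from -7.53 to -4.89 when 1 library was left out. With all transcript rows summed, where Tcf7l2 has 8 rows, it was -1.16 points. Tcf7l2 took the largest share in every library, 56.5% to 66.7% in infant and 66.7% to 71.1% in young adult libraries. The sum itself was 34.1, 24.9 and 34.7 RPKM in infant EC against 21.1, 21.6 and 20.4 RPKM in young adult EC.

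The genes with the profile closest to that of Lef1 were Gpr126, Cd81 and Lmcd1, with root mean square differences of 0.0787, 0.0873 and 0.0874 on the log2 scale over 6 libraries, among 6984 genes compared. Per 1000 RPKM of endothelial markers Lef1 was 0.906, 0.184 and 0.882 in infant and 0.0210, 0.0402 and 0 in young adult libraries, without overlap. Per 1000 RPKM of fibroblast markers it was 2.61, 3.25 and 3.68 against 12.1, 10 and 0, and the groups overlapped. The part of other cell types in the fall of Lef1 was not tested. Of the 15 genes of β-catenin and its nuclear partners, 14 had a row. By limma 2 were called lower and none higher (2 were higher at an unadjusted p under 0.05), against 8.1% and 3.33% of all genes tested. Beside Lef1 the called gene was Tle3, a co-repressor of TCF/LEF proteins, which fell from 3.3, 2.2 and 3.4 RPKM to 1, 0.9 and 1.5 RPKM (-0.89 ± 0.17, adjusted p = 0.0117, lost without young adult replicate 1 or 2 at adjusted p of 0.0508 and 0.0541).

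Of 20 genes listed as β-catenin targets in other settings, 14 had a row. Of these, 4 were called lower (Tnfrsf19, Foxf2, Lef1 and Myc), against 8.1% of all genes tested. None was called higher by limma (1 at an unadjusted p under 0.05), against 3.33%. Tnfrsf19, Foxf2 and Lef1 passed the expression filter only through infant libraries, so the counts are partly set by the filter. Tnfrsf19, a receptor of the TNF family, fell from 26.3, 4.2 and 21.6 RPKM to 0.2, 0.9 and 0.3 RPKM (-3.36 ± 0.57, limma adjusted p = 0.00754, called in 6 of 6 fits without 1 library). Per 1000 RPKM of fibroblast markers Tnfrsf19 was 23.7, 17.1 and 30.5 in infant and 24.1, 45 and 16.95 in young adult libraries, which overlapped. Per 1000 RPKM of endothelial markers it was 0.967 to 8.21 and 0.0420 to 0.181, without overlap. The part of fibroblast RNA was not tested. Foxf2, a forkhead factor of mesenchymal and mural cells, fell from 2.7, 0.5 and 3.5 RPKM to 0, 0.1 and 0.1 RPKM (-1.46 ± 0.37, adjusted p = 0.0279, called only without infant replicate 2, with 0.0719 to 0.101 in the other 5 fits). Myc, a growth regulator, fell from 5.5, 3.6 and 5 RPKM to 1.8, 1.3 and 1.9 RPKM (-1.09 ± 0.16, adjusted p = 0.00472, called in 6 of 6). Cldn5, the tight junction protein of endothelium, was the most abundant, at 358 to 494 RPKM in infant EC against 463 to 601 RPKM in young adult EC, which overlapped (0.33, adjusted p = 0.209).

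Over all 11 role lists, 83 of 132 listed genes had a row and were tested, and the others were not analysed here. Of the 83, 15 were called lower and 2 higher, against 8.1% and 3.33% of all genes tested, and 60 had a negative log2 fold change against 7295 of all 12458 genes. The median log2 fold change was -0.33 over the 83 genes, -0.31 without the 9 genes and -0.07 over all genes tested. Of the 83, 19 reached 1 RPKM only in infant and 1 only in young adult libraries, and the 19 include 10 of the 15 called lower, so the counts and medians are partly set by the filter. Over all genes tested, 1184 passed only through infant and 205 only through young adult libraries, and 460 of the 1009 called lower were among the 1184. The lists were chosen with earlier results of the same data known, and the counts are descriptions. Infant replicate 2 was the lowest infant library in 14 of the 15 genes called lower, in 77.9% of all genes called lower and in 35.6% of all genes tested. Without it, 22 genes were called lower and 3 higher, and without young adult replicate 1 or 2, 9 and 8 were called lower.

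**Figure D3:**
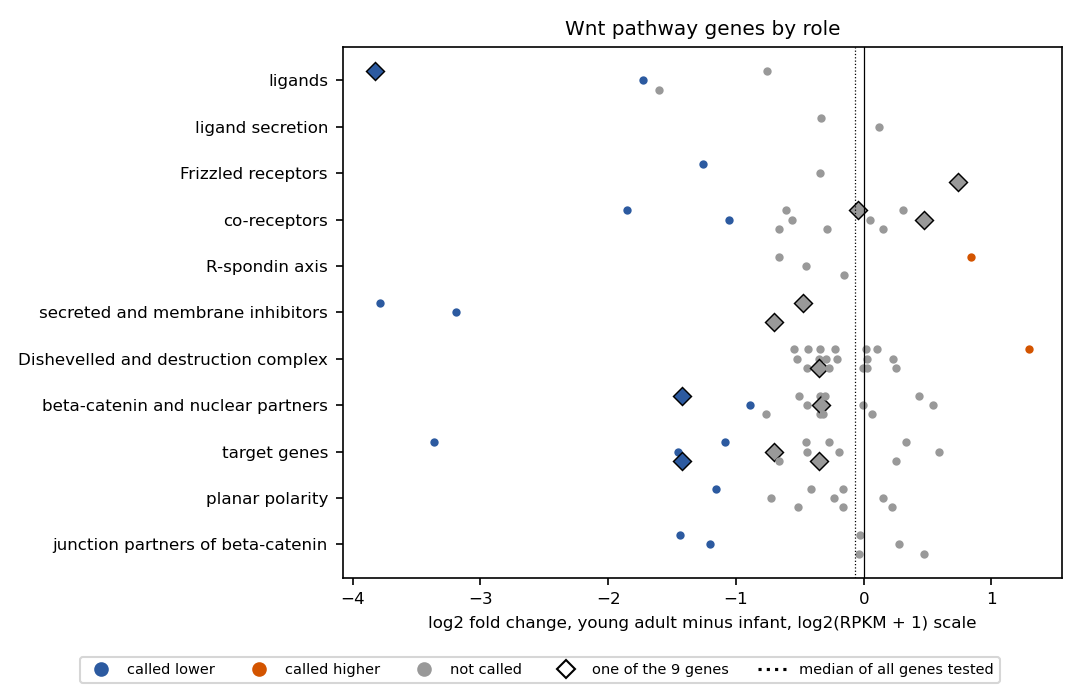
Log2 fold change, young adult minus infant on the log2(RPKM + 1) scale (horizontal axis), of each Wnt pathway gene with a row, by role (vertical axis; a gene in several roles is drawn in each). Blue and orange mark the 15 genes called lower and the 2 called higher, diamonds the 9 genes, and the dotted line the median of all genes tested, -0.07.

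The 9 genes divided in how infant replicate 2 compared with the other infant libraries. Relative to the mean of replicates 1 and 3, it held 0.141 of Wnt5a, 0.291 of Lef1, 0.333 of Axin2, 0.480 of Apcdd1 and 0.706 of Sfrp1. Lrp6 and Ctnnb1 were at 0.939 and 0.992 of that mean, and Lrp5 and Fzd4 were above it, at 1.30 and 1.71. On the same measure erythroid, fibroblast and mural markers stood at 0.175, 0.271 and 0.290. Leukocyte, endothelial, epithelial, mesothelial and lymphatic markers stood at 1.39, 1.41, 1.52, 1.80 and 2.03. Replicate 2 was the lowest infant library for Wnt5a, Lef1, Axin2, Apcdd1 and, by a small margin, Lrp6, and it equalled replicate 1 for Sfrp1. What set replicate 2 apart was not tested.

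**Figure D4:**
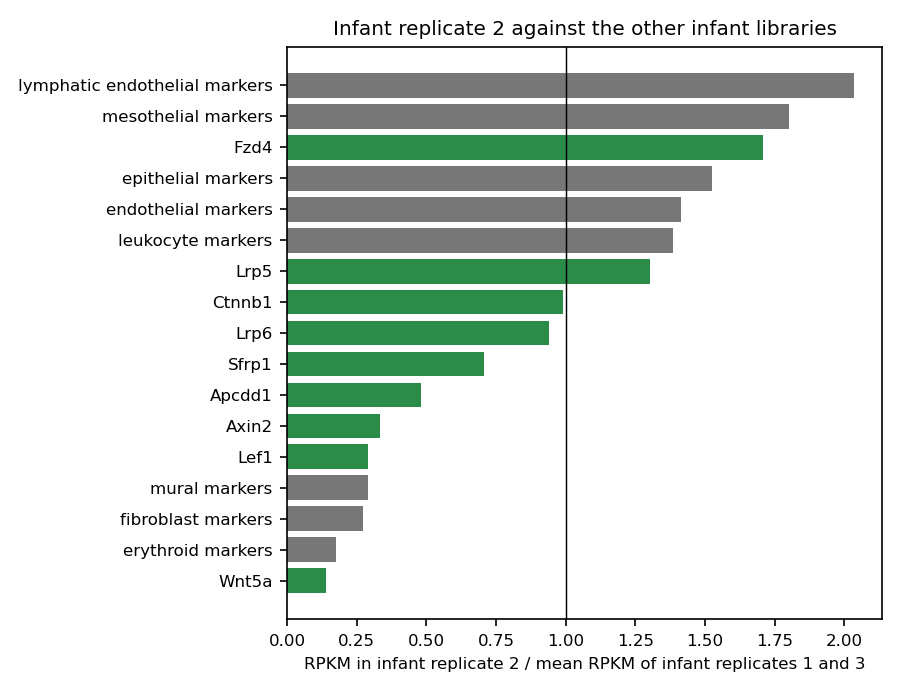
RPKM in infant replicate 2 divided by the mean RPKM of infant replicates 1 and 3 (horizontal axis from 0, line at equality) for the 9 genes (green) and for summed marker lists (grey). Erythroid, fibroblast and mural markers lie at 0.175 to 0.290 near Wnt5a and Lef1, and the other 5 lists lie above 1, as do Fzd4 and Lrp5.

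The order of levels changed between the ages. In infant EC it ran Ctnnb1, Wnt5a, Fzd4, Lrp6, Lef1, Axin2, Lrp5, Apcdd1 and Sfrp1, and from Lef1 downwards each neighbour overlapped the next, as did Wnt5a and Fzd4. In young adult EC it ran Ctnnb1, Fzd4, Lrp6, Lrp5, Axin2, Wnt5a, Sfrp1, Apcdd1 and Lef1, with overlap only from Wnt5a downwards. Ctnnb1 stood at percentile 93.4 of the genes of the table in infant and 90.8 in young adult EC, Fzd4 at 71.2 and 81.6, and Wnt5a at 83.9 and 6.19.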

How the data were processed

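Sorted lung EC were sequenced from 3 infant and 3 young adult samples, grouped by title. RNA was amplified with a low-input poly(A)-priming kit. Per the study's methods and the labels, the authors aligned reads to mm10 with STAR (version not given in the sources used here), counted on RefSeq and used DESeq2. The deposited values were RPKM by the authors, 1 row per RefSeq transcript, rounded to 1 decimal. Counts were not analysed here, so depth is unknown and no counting error was attached.

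In 24 rows, symbols turned into dates were restored from the RefSeq accession, and 1 row per gene, that with the highest mean, was kept (17241 rows, 12623 genes). Since RPKM are not counts, limma 3.58.1 in R 4.3.3 (lmFit, eBayes with trend, age as the only term) was run on log2(RPKM + 1) for genes with at least 1 RPKM in at least 1 library. The pseudocount understates changes of low genes. The script was tested on simulated data. Gene positions are from RefSeq.

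The text names each of the 9 genes, the most abundant gene and up to 4 called genes with the largest change per role list, and the 3 nearest profiles (mean RPKM at least 5) of each called gene of the 9. Wnt9a, Wnt11, Fzd6 and the other TCF/LEF genes were added after their values were seen or for a sum. Genes and lists were chosen with earlier results of these data known. Alternatives were pseudocounts of 0.1 and 5, other filters, 4 scalings, summed rows, other variance options, a replicate block, no fold threshold, treat, and leaving out each library. Scaling to the endothelial marker sum was added after seeing the data.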

Additional observations from a re-analysis of the deposited data

How the results depend on the processing

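The 9 genes called lower numbered 2 in the reported fit, 1 with a pseudocount of 5, 0 with limma's treat (2 at an unadjusted p under 0.05), 4 without a fold threshold and 1 to 3 when 1 library was left out. Those called higher numbered 0 (2 at an unadjusted p under 0.05), but 1 with array weights (Fzd4), 2 without a fold threshold and 0 to 1 with 1 library left out. Pathway genes called lower numbered 15, but 5 with a pseudocount of 5, 2 with treat, 30 without a fold threshold and 8 to 22 with 1 library left out. Those called higher numbered 2, but 0 by limma with a pseudocount of 5 and with treat (9 and 1 at an unadjusted p under 0.05), 1 when globin genes were left out of the scaling, 8 without a fold threshold and 2 to 3 with 1 library left out. Scaling to the endothelial marker sum moved the median of all genes from -0.07 to -0.51, and 4 of the 9 genes and 37 pathway genes were called lower, with 0 (0 at an unadjusted p under 0.05) and 1 called higher. Over all genes, 415 were called higher and 1009 lower in the reported fit, 532 and 611 after quantile normalization (median 0.04). The sign of Lrp6 turned after scaling to the same sum (0.0277) and quantile normalization (0.0833), and that of Sfrp1 after quantile normalization (0.0208). The causes were not tested. Same-numbered libraries of the 2 groups did not deviate together (correlations 0.03, -0.11 and -0.02). With a replicate block the calls still numbered 2 and 0 for the 9 genes and 15 and 2 for pathway genes, and the 3 shares differed by the same 22.3, 9.90 and -5.94 points. The adjusted p of Lrp5 and Ctnnb1, neither called, was then 0.0637 and 0.0773. Unknown depth and rounding to 0.1 RPKM limit Sfrp1, Apcdd1 and Lef1 most.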

Other observations

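β-catenin also binds cadherins, and all 6 listed junction partners had a row. Cdh5, the cadherin of endothelial junctions, was the most abundant, at 232.5, 310.1 and 213.8 RPKM in infant EC against 276.4, 314.5 and 316.9 RPKM in young adult EC, which overlapped (log2 fold change 0.28 ± 0.17, limma adjusted p = 0.256). Cdh2, the cadherin of neurons and mesenchyme, fell from 2.2, 1.9 and 3 RPKM to 0.2, 0.3 and 0.2 RPKM (-1.44 ± 0.16, adjusted p = 0.00165, called in 6 of 6 fits without 1 library). Cdh1, the epithelial cadherin, fell from 7.1, 9.2 and 9.2 RPKM to 1.5, 3.5 and 5.1 RPKM (-1.21 ± 0.30, adjusted p = 0.0241), and was not called without infant replicate 1 or 3 or young adult replicate 2 (adjusted p = 0.0571, 0.0725 and 0.0754). Epithelial markers, of which Cdh1 is a member, were called lower in 3 of 7 genes, and their part was not tested.

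Of the 11 planar polarity genes listed, 9 had a row and 1 was called lower, against 8.1% of all genes tested. The called gene passed the expression filter only through infant libraries. Daam2, a formin that links Dishevelled to the actin skeleton, fell from 1.8, 0.5 and 2.2 RPKM to 0, 0.1 and 0.1 RPKM (-1.16 ± 0.28, limma adjusted p = 0.0224), and was called only without infant replicate 2 among the fits that left out 1 library (0.0589 to 0.0858 in the others). Prickle1, a core polarity protein, was the most abundant, at 44.1 to 56.7 RPKM in infant EC against 41.1 to 44.2 RPKM in young adult EC (-0.23, adjusted p = 0.166), and the groups overlapped at their edge.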
